A study of Penicillium oxalicum with 15 samples.

Results

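The xylanase genes described here are 3 identifiers of Penicillium oxalicum, POX00063, POX06783 and POX08484, of 9512 identifiers listed in the deposited files. They were chosen by identifier, and all 3 were listed in each of the 15 libraries. The files do not pair identifiers with gene names, and 0 of the 9512 were found in a reference table that lists 9964 genes for strain HP7-1, so that the function of each gene rests on the name under which it was chosen and could not be checked against an annotation. For the same reason no sequence or position is given.

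The series measured gene expression by RNA sequencing in mycelium from solid-state cultures, in which the fungus grows on moist particles without free liquid, for 5 days at 28 °C. Strain EU2101 had 3 carbon sources, WB, WB plus AV and WR, while strains MuKu70 and MuPOX03016 had WR alone, with 3 libraries per group and 15 in all. Every group is listed with 10 g of carbon source. The abbreviations of the carbon sources are not explained in the labels. AV in a title is WA in the growth description of that sample, and WB_RS in the titles of EU2101 is WR there. EU2101 is given by its strain name alone, and no genetic alteration is stated for it. MuKu70 is named for Ku70, a protein of DNA end joining whose loss makes targeted gene deletion easier in filamentous fungi, and MuPOX03016 is named for the gene POX03016. The labels do not say how either strain was made, whether MuPOX03016 also lacks Ku70, or whether a strain is a single clone. Nothing in the labels says that replicates came from separate cultures, so p-values measure only the spread between these libraries, which may be technical.

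Xylan is the main hemicellulose of cereal cell walls, a chain of xylose units that carries side groups such as arabinose. Endoxylanases cut inside that chain and release short xylooligosaccharides, which other enzymes trim to xylose. Filamentous fungi of this kind secrete several endoxylanases side by side, commonly from different protein families, and commonly switch on their genes together with cellulase genes when plant cell walls are the carbon source.

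The estimated counts summed to between 1782848 and 3414915 in the 9 EU2101 libraries and to between 6609605 and 7335888 in the 6 MuKu70 and MuPOX03016 libraries. Replicate 1 of WB stood apart across all genes, with a correlation of 0.919 and 0.923 to the other WB libraries against 0.955 to 0.966 to the WB plus AV libraries, while WB replicates 2 and 3 correlated at 0.976 with each other. POX03016 itself was at 17.9 to 19.93 FPKM in MuPOX03016 and at 87.37 to 138.97 FPKM in MuKu70. The log2 fold change was -2.33 (SE 0.19, adjusted p = 0.0012 in edgeR), so reads counted under this identifier were fewer but not absent in the strain that carries its name. The length implied by its count and FPKM was 1318 to 1334 bp in EU2101 and 2219 to 2278 bp in the MuKu70 and MuPOX03016 libraries. Which part of that length the remaining reads came from was not tested.

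FPKM, the unit of the levels below, scales fragments by gene length and library size, so that levels of different genes can be set side by side. In bulk RNA, fewer expressing cells and less RNA per cell cannot be told apart. POX00063 was the most abundant of the 3 on WB, at 2118.55, 1903.89 and 1649.07 FPKM in replicates 1, 2 and 3. On WB plus AV it stood at 2692.8, 2801.26 and 1942.62 FPKM, and on WR at 7141.22, 4593.25 and 6108.99 FPKM. The WB and WB plus AV libraries overlapped, and every WR library lay above both groups. POX00063 thus had a high level on WB already, where it ranked between 33rd and 49th of all genes by FPKM, and it ranked 7th or 8th on WR.

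POX06783 had the lowest level of the 3 on WB, at 494.39, 90.75 and 52.09 FPKM in replicates 1, 2 and 3. It stood at 3008.48, 1329.09 and 1005.11 FPKM on WB plus AV and at 5365.81, 3382.98 and 4065.19 FPKM on WR. No library of a lower group reached the next group, and replicate 1 was the highest library in each group. The gene moved from rank 318, 1806 and 3014 in the 3 WB libraries to ranks between 12 and 19 on WR.

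POX08484 lay between the others on WB, at 938.86, 458.21 and 331.65 FPKM in replicates 1, 2 and 3. It stood at 2511.74, 1701.21 and 1066.87 FPKM on WB plus AV and at 7486.11, 4169.43 and 5170.73 FPKM on WR. Again the 3 groups did not overlap, although the lowest WB plus AV library was close to the highest WB library. Its rank by FPKM was between 123 and 397 on WB and between 6 and 12 on WR.

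In the mutant strains on WR all 3 genes were expressed at lower levels than in EU2101 on WR. POX00063 stood at 741.99, 1248.38 and 436.14 FPKM in MuKu70 and at 1451.44, 2786.21 and 864.79 FPKM in MuPOX03016, groups that overlap. POX06783 stood at 1015.58, 744.53 and 779.43 FPKM in MuKu70 and at 2621.16, 1126.22 and 1475.67 FPKM in MuPOX03016. POX08484 stood at 248.98, 270.64 and 175.44 FPKM in MuKu70 and at 1318.41, 856.62 and 684.19 FPKM in MuPOX03016. For POX06783 and POX08484 every MuPOX03016 library lay above every MuKu70 library, a separation in this direction that 13% of 7931 tested genes showed. Every EU2101 library on WR lay above every MuKu70 library for all 3 genes, as it did for 37.8% of 8287 tested genes.

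**Figure D1:**
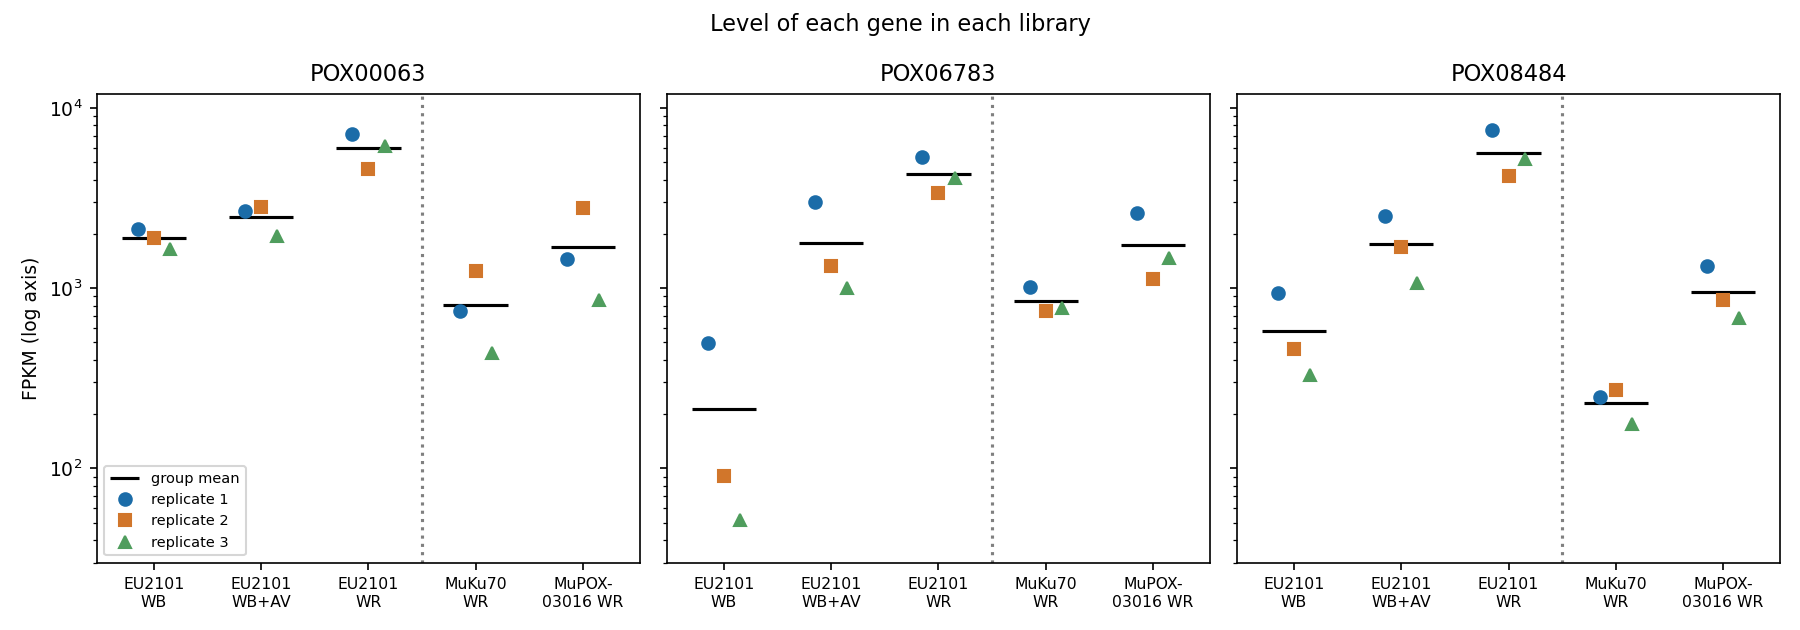
FPKM of POX00063, POX06783 and POX08484 in each of the 15 libraries on a log axis, with replicates as symbols and the group mean as a line; the dotted line separates the EU2101 groups from the mutant strains. POX06783 spans the widest range, from 52.09 FPKM in a WB library to 5365.81 FPKM in a WR library, while POX00063 is at 1649.07 FPKM or more in every EU2101 library.

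Ordered by group mean, POX00063 was highest in EU2101 on WR (5948 ± 1282 FPKM, SD, n = 3), followed by WB plus AV (2479 ± 468), WB (1891 ± 235), MuPOX03016 (1701 ± 985) and MuKu70 (809 ± 410). Of the steps between neighbours in that order, only the first separated groups without overlap. The order for POX06783 was EU2101 on WR (4271 ± 1007 FPKM), WB plus AV (1781 ± 1075), MuPOX03016 (1741 ± 782), MuKu70 (846.5 ± 147.5) and WB (212.4 ± 245.0), and of the groups next to each other in that order only WB plus AV and MuPOX03016 overlapped. WB plus AV also overlapped with MuKu70, by its lowest library of 1005.11 FPKM against the highest MuKu70 library of 1015.58 FPKM. For POX08484 it was EU2101 on WR (5609 ± 1701 FPKM), WB plus AV (1760 ± 724), MuPOX03016 (953.1 ± 327.9), WB (576.2 ± 320.4) and MuKu70 (231.7 ± 49.9), with overlap of MuPOX03016 with both of its neighbours. The place of WB for POX00063 depends on gene length, since the length implied by its count and FPKM was 1155 to 1171 bp in EU2101 and 1557 to 1592 bp in the mutant libraries. In CPM, which scales counts to the library total and not to length, POX00063 stood at 2192 ± 268 on WB (SD, n = 3) and at 2659 ± 1523 in MuPOX03016, so WB came after MuPOX03016 and not before it, with overlap of the 2 groups on both scales. The counts were taken over these different lengths, so neither scale sets the 2 groups like with like. The orders of POX06783 and POX08484 were the same in CPM, with WB last for POX06783.

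The 3 genes also differed in how far replicates scattered. The coefficient of variation of POX00063 was 12.4% on WB, where the median over 1736 genes with a mean of at least 100 FPKM was 26.0%. It was 50.7% in MuKu70, above the 90th percentile of such genes there (27.5%). In MuPOX03016 all 3 genes were above the 90th percentile of 31.7%, at 57.9% for POX00063, 44.9% for POX06783 and 34.4% for POX08484. Replicate 2 was the highest and replicate 3 the lowest library for POX00063 in both mutant strains. POX06783 had a coefficient of variation of 115% on WB, above the 90th percentile of 61.1%, with replicate 1 far above the other libraries, and of 23.6% on WR. On WB plus AV POX06783 varied by 60.4%, where the 90th percentile was 45.3%. POX08484 varied by 55.6% on WB, below the 90th percentile, and by 30.3% on WR, above the 90th percentile of 23.9%.

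The title of the series names the carbon source as what was varied. The highest levels of all 3 genes were on WR. Without a block for the replicate number, WR against WB was the one carbon comparison in which all 3 passed the test. With that block all 3 also passed on WR against WB plus AV, where 484 of 8079 tested genes were called higher. In edgeR's quasi-likelihood test over 8079 genes, with Benjamini-Hochberg adjustment and a threshold of 0.05, all 3 rose on WR against WB, where 8.66% of tested genes were called higher, 7.61% lower and 16.3% in either direction. WR lay above WB without overlap for all 3, as for 14.8% of tested genes. POX06783 rose 22.5-fold (log2 fold change 4.49, SE 0.78, adjusted p = 0.00577) and had the 10th largest log2 fold change of the 8079. POX08484 rose 10.3-fold (3.37, SE 0.46, adjusted p = 0.00204), the 52nd largest. POX00063 rose 3.2-fold (1.68, SE 0.31, adjusted p = 0.0072), the 344th largest. Each of the 3 calls held with any 1 of the 6 libraries left out. Without WB replicate 1 the log2 fold change of POX06783 was 5.81, a value set by WB libraries with only 129 and 94 counts of the gene.

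WB plus AV against WB gave values that differed between the genes, and none of the 3 passed the test in edgeR, where 0.681% of tested genes were called higher and 1.18% in either direction. WB plus AV lay above WB without overlap for 2 of the 3, POX06783 and POX08484, and for 5.79% of tested genes. The log2 fold change was 3.14 for POX06783 (SE 0.73, adjusted p = 0.0717), 1.62 for POX08484 (SE 0.43, adjusted p = 0.0933) and 0.36 for POX00063 (SE 0.30, adjusted p = 0.565). At an unadjusted p under 0.05 there were 2, POX06783 and POX08484, and the share of all genes under that rule was not computed. The same 2 were called by DESeq2, which called 258 of 8448 genes higher. Limma on log2(FPKM + 1) called 1, POX06783, and 54 of 8762 genes higher. The replicate numbers paired the libraries of these groups, and with the replicate number as a block POX06783 (3.43, adjusted p = 0.00845) and POX08484 (1.63, adjusted p = 0.0176) were called, while POX00063 was not (0.35, adjusted p = 0.486). That block called 238 of 8079 tested genes higher. With no block and without WB replicate 1 the values were 4.47 for POX06783 (adjusted p = 0.000842) and 1.99 for POX08484 (adjusted p = 0.00843), both past the threshold. Leaving out any other library, again with no block, gave no call.

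From WB plus AV to WR the 3 log2 fold changes lay closer together, at 1.32 for POX00063 (SE 0.30, adjusted p = 0.0358), 1.35 for POX06783 (SE 0.68, adjusted p = 0.33) and 1.74 for POX08484 (SE 0.43, adjusted p = 0.0458). POX00063 and POX08484 passed the test in edgeR, where 3.24% of tested genes were called higher and 5.09% in either direction, and POX06783 did not. WR lay above WB plus AV without overlap for all 3, as for 13.4% of tested genes. With the replicate number as a block, which paired these libraries too, POX06783 also passed (1.54, adjusted p = 0.0452), and 484 of 8079 tested genes were called higher. With no block in the fit, neither of the 2 calls held with any 1 of the 6 libraries left out. Adjusted p was then 0.0583 to 0.163 for POX00063 and 0.0511 to 0.188 for POX08484. Leaving out libraries with the block in the fit was not run. In limma on log2(FPKM + 1) both missed the threshold (adjusted p = 0.0539 and 0.077).

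**Figure D2:**
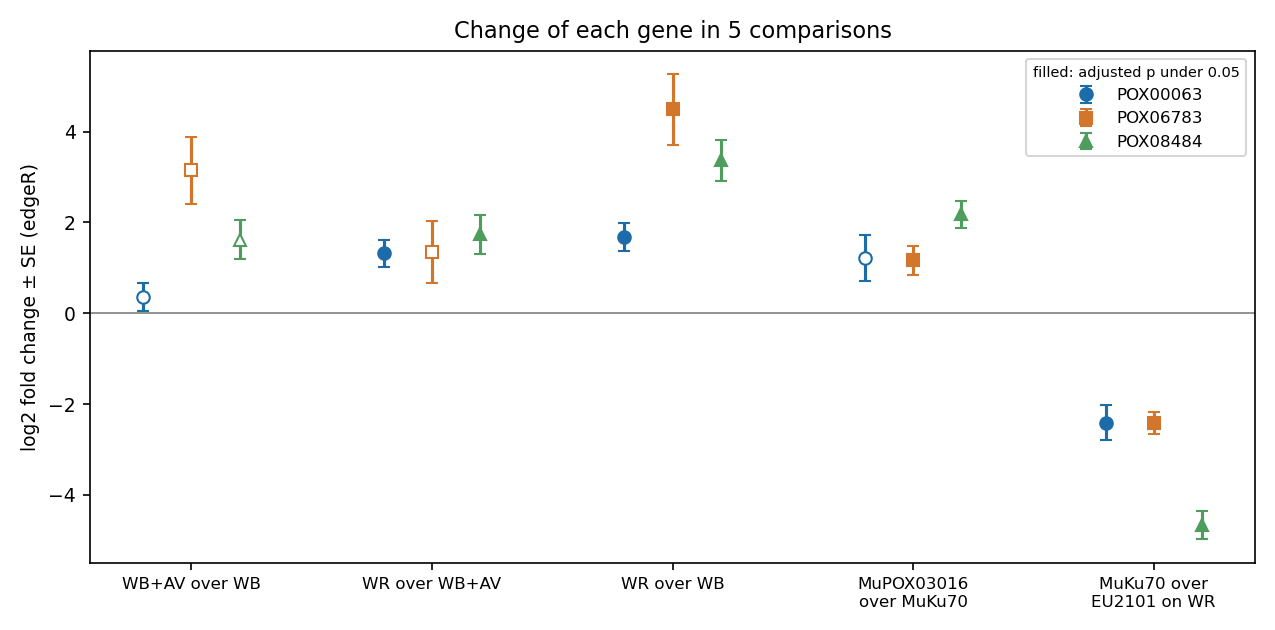
Log2 fold change with its standard error from edgeR for POX00063, POX06783 and POX08484 in 5 comparisons; filled symbols have an adjusted p under 0.05, and the comparisons share control groups. WR over WB shows the widest spread between the genes, from 1.68 to 4.49, and WR over WB plus AV the narrowest, from 1.32 to 1.74.

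The group means of all 3 genes rose from WB to WB plus AV to WR, an order that 22.2% of the 8079 tested genes shared. For POX06783 and POX08484 every library of a group lay above every library of the group before it. Such a complete order was found for 74 of the 8079 genes, or 0.916%. POX00063 did not show it, because its highest WB library (2118.55 FPKM) lay above its lowest WB plus AV library (1942.62 FPKM).

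Together the 3 genes took 0.302 ± 0.067% of the FPKM sum on WB (SD, n = 3), 0.70 ± 0.21% on WB plus AV and 1.76 ± 0.43% on WR. Their make-up shifted as their sum grew. POX00063 made up 72.8 ± 11.5% of the summed FPKM of the 3 genes on WB, 43.1 ± 8.9% with AV added and 37.8 ± 2.0% on WR. POX06783 made up 6.7 ± 6.3%, 28.2 ± 7.4% and 27.1 ± 0.7%, and POX08484 made up 20.5 ± 5.3%, 28.8 ± 2.0% and 35.2 ± 2.0% of it. On WR the shares were close to each other between replicates, with standard deviations of 0.71 to 2.05 percentage points.

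Ratios between the genes within a library cancel the depth of that library and show whether the genes moved by unequal amounts. The level of POX08484 relative to POX00063 was 0.443, 0.241 and 0.202 on WB, 0.933, 0.607 and 0.549 on WB plus AV and 1.05, 0.908 and 0.846 on WR in replicates 1, 2 and 3. Every WB library was thus below every other EU2101 library in this ratio. The log2 ratio differed between the 3 carbon sources in an exact permutation test over all arrangements of the libraries (p = 0.0107, adjusted p = 0.0482 over 9 ratio tests), with WR above WB by 1.74.

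POX08484 relative to POX06783 stood at 1.9, 5.0 and 6.27 on WB, 0.835, 1.28 and 1.06 on WB plus AV and 1.39, 1.23 and 1.27 on WR. This ratio was highest on WB in every library, and it too differed between carbon sources (exact permutation p = 0.0107, adjusted p = 0.0482), with WR below WB by a log2 difference of -1.59. POX06783 relative to POX00063 stood at 0.234, 0.0482 and 0.0322 on WB, 1.12, 0.475 and 0.518 on WB plus AV and 0.751, 0.737 and 0.665 on WR. The log2 ratio was higher on WR than on WB by 3.33, and the test did not pass after adjustment (exact permutation p = 0.0321, adjusted p = 0.0964). When the libraries were permuted only within replicate numbers, the adjusted p was 0.0964 for POX08484 over POX00063 and 0.15 for POX08484 over POX06783. With so few arrangements neither could have gone below 0.0964, so this setting cannot show whether the calls hold. Leaving out single libraries gave adjusted p of 0.0482 to 0.15 for both. POX08484 over POX00063 was lost without WB plus AV replicate 2 or 3 or without any WR library, and POX08484 over POX06783 was lost without any WB plus AV or any WR library.

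**Figure D3:**
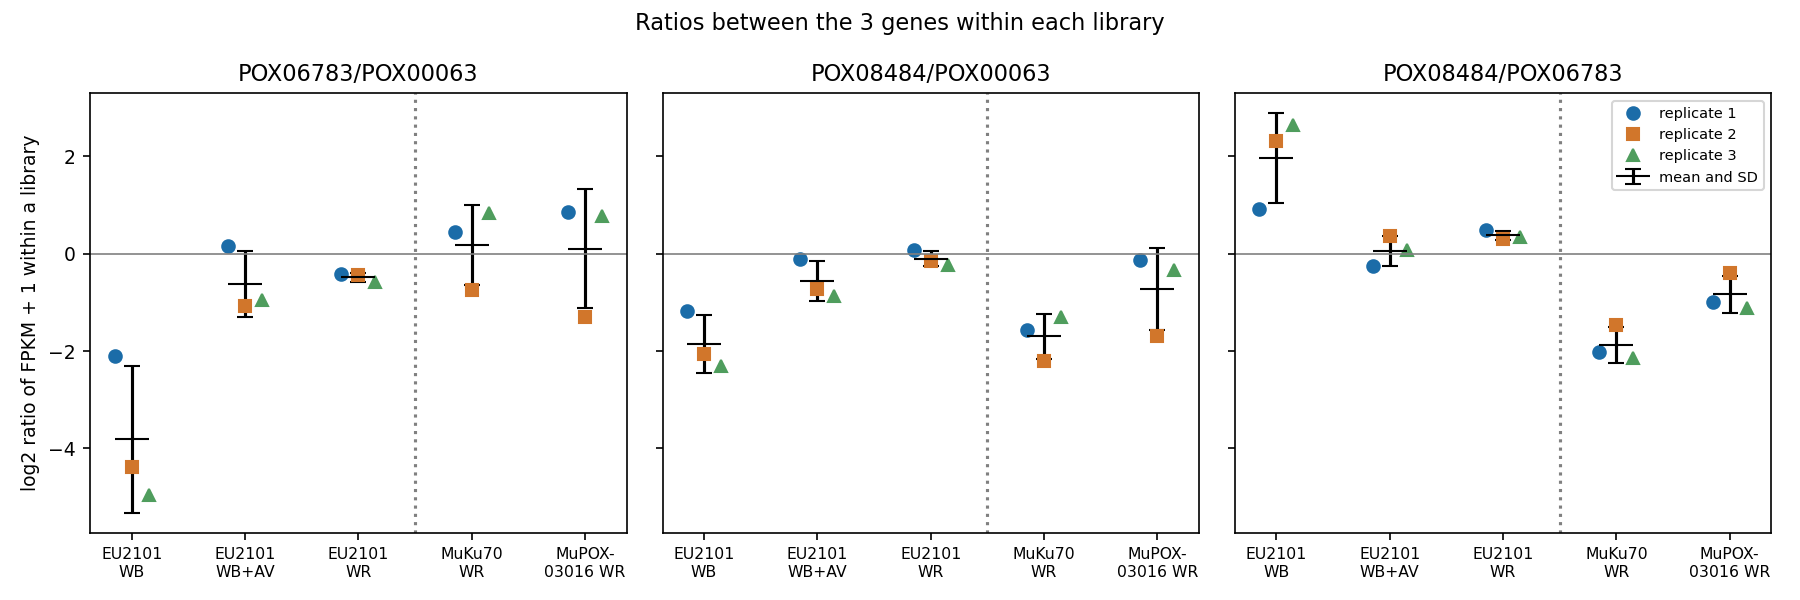
Log2 ratio of FPKM + 1 between pairs of the 3 genes within each of the 15 libraries, with symbols for replicates and bars for mean and SD (n = 3). On WB POX06783 is low relative to both others, and the 3 WR libraries of EU2101 lie close together in each panel.

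The design text names a search for regulators of cellulase and hemicellulase genes, and POX03016 is addressed by setting its mutant beside MuKu70. All 3 xylanase genes had higher group means in MuPOX03016, and 2 of them rose in edgeR's test over 7931 genes, where 10.8% were called higher, 7.55% lower and 18.4% in either direction. POX08484 rose 4.51-fold (log2 fold change 2.17, SE 0.29, adjusted p = 0.00385), the 37th largest log2 fold change of the 7931, and passed with any 1 of the 6 libraries left out. POX06783 rose 2.25-fold (1.17, SE 0.32, adjusted p = 0.0458). POX00063 stood at 1.21 (SE 0.50, adjusted p = 0.139) and did not pass. With the replicate number as a block all 3 passed in edgeR, POX00063 at 1.18 (adjusted p = 0.00247). That block called 1125 of 7931 tested genes higher. Whether the replicate numbers pair these libraries is not settled.

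Without the block the call of POX06783 was close to the threshold. It held without MuPOX03016 replicate 2 (1.40, adjusted p = 0.0237) and was lost with any other library left out, with values of 0.73 to 1.32 and adjusted p of 0.0631 to 0.125. In limma on log2(FPKM + 1) it was lost as well (0.96, adjusted p = 0.0772), on a scale where the median of all genes lay at -0.13. On that scale POX08484 remained called at 2.01 (adjusted p = 0.00561). Together the 3 genes held 0.228 ± 0.058% of summed FPKM in MuKu70 and 0.53 ± 0.15% in MuPOX03016 (SD, n = 3).

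Within the mutant strains, POX08484 relative to POX06783 was at 0.246, 0.364 and 0.226 in MuKu70 and at 0.503, 0.761 and 0.464 in MuPOX03016. Every MuPOX03016 library lay above every MuKu70 library, with a log2 difference of 1.04, and p was 0.1 in a 2-sided exact permutation test (adjusted p = 0.15), as low as groups of 3 can reach. POX06783 relative to POX00063 did not separate the strains, at a log2 difference of -0.08 against standard deviations of 0.82 and 1.22 (exact permutation p = 0.9). For POX08484 over POX00063 the difference was 0.97 (exact permutation p = 0.3).

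The counts of POX08484 were not whole numbers in any of the 6 mutant libraries and whole in all 9 EU2101 libraries, while POX00063 and POX06783 had whole counts in every library. Such counts are not particular to POX08484, since 13.37 to 14.18% of the listed identifiers had them in each mutant library, against 0.17 to 0.31% in each EU2101 library. The fractions of POX08484 added up to whole counts with those of a single other identifier, POX08483, within 0.005 counts in all 6 libraries, and the next best identifier missed by 0.11 counts. Reads were thus divided between these identifiers in the authors' counting. The length implied by count and FPKM for POX08483 was 2170 to 2188 bp in the EU2101 libraries and 6781 to 6819 bp in the mutant libraries. POX08483 was singled out after these values were seen.

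With the counts of POX08483 added to those of POX08484, the sum was 456 ± 73 CPM (SD, n = 3) in MuKu70 and 1465 ± 468 CPM in MuPOX03016. POX08484 held 37 to 42.6% of the sum in MuKu70 and 49.9 to 52.2% in MuPOX03016. The sum rose in MuPOX03016 as well, with an edgeR log2 value of 1.84 (SE 0.26, adjusted p = 0.00483), an alternative chosen after the fractional counts were seen. In EU2101 the counts were not divided, and POX08484 held 58.3 to 72.0% of the sum on WB and 89.9 to 90.8% on WR.

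**Figure D4:**
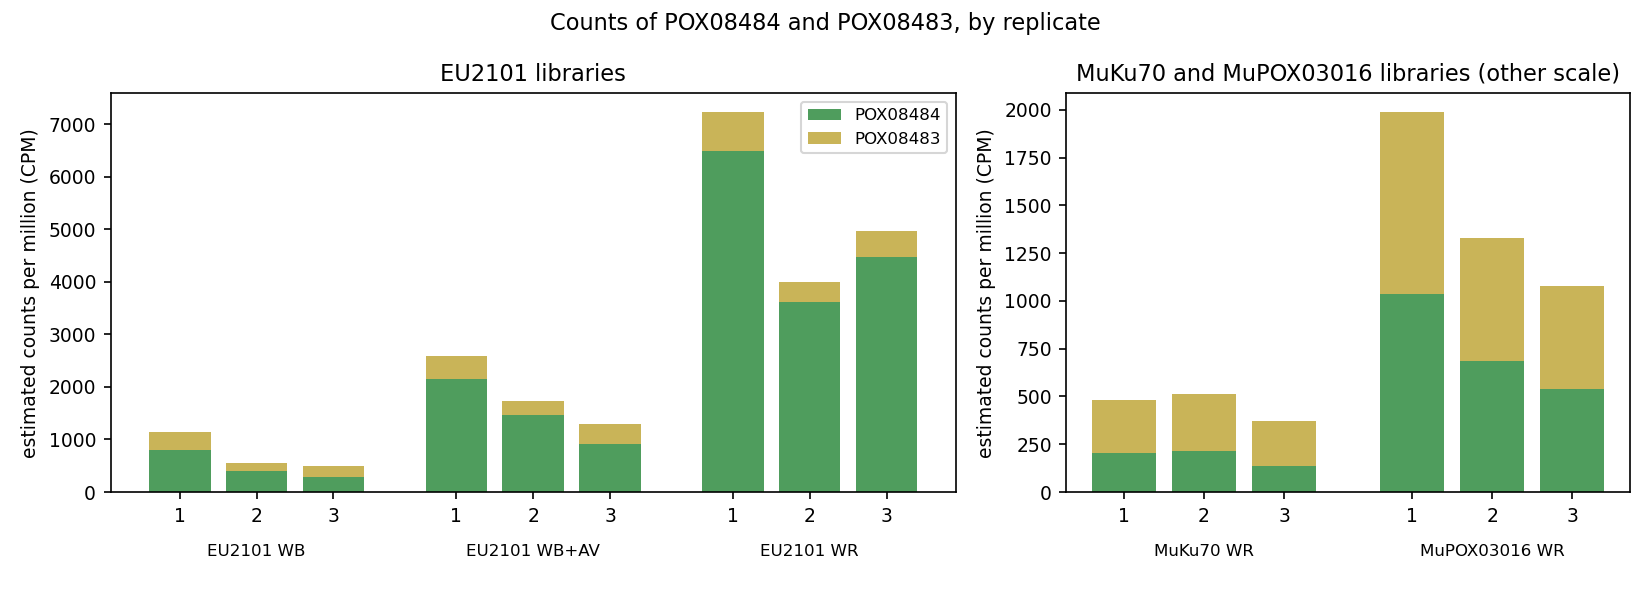
Estimated counts in CPM of POX08484 and POX08483, stacked, in each library, with EU2101 on the left and the mutant strains on the right on a different scale. POX08483 takes a small part of the sum on WR in EU2101 and a larger part of it in every mutant library, where POX08484 holds 37 to 52.2%. The implied length of POX08483 is greater in the mutant libraries, so its parts on the left and right are not like with like.

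MuKu70 against EU2101 on WR compares strains on the same carbon source. All 3 genes were lower in MuKu70, where 31.3% of 8287 tested genes were called lower, 31.5% higher and 62.8% in either direction. The log2 fold change was -2.41 for POX00063 (SE 0.39, adjusted p = 0.000946), -2.41 for POX06783 (SE 0.24, adjusted p = 5.86e-05) and -4.67 for POX08484 (SE 0.31, adjusted p = 7.15e-06). Summed with POX08483, the last became -3.52 (SE 0.28, adjusted p = 1.82e-05). That sum is not like with like between these strains. The implied length of POX08483 was 2170 to 2188 bp in EU2101 and 6781 to 6819 bp in the mutant libraries. All 3 calls held with any 1 of the 6 libraries left out. POX08484 over POX06783 stood at 1.23 to 1.39 in the EU2101 libraries on WR and at 0.226 to 0.364 in MuKu70, and the groups did not overlap (exact 2-sided permutation p = 0.1, the smallest possible). In this ratio the MuKu70 values of POX08484 are the divided counts described above.

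The gene models behind the values differ between these sets of libraries, and strain and processing cannot be told apart here. The implied length of POX00063 was 1155 to 1171 bp in EU2101 and 1557 to 1592 bp in the mutant libraries, a difference of 407 bp where most genes shared a shift of -71 bp. POX06783 and POX08484 had that common shift. For POX00063 the log2 fold change between MuKu70 and EU2101 was -2.98 in limma on log2(FPKM + 1), against -2.41 on counts, which do not divide by length. Those counts were taken over the different lengths, so neither value is like with like.

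A panel of 10 other identifiers, taken by name as genes of plant-biomass-degrading enzymes and not annotated in the files, was described in the same comparisons. By working names used for these data it holds the cellobiohydrolase genes POX05587 and POX04786, whose enzymes release cellobiose from cellulose chain ends, and the beta-glucosidase gene POX06835, whose enzyme splits cellobiose to glucose. In the comparison of WR with WB 8 of the 10 were called higher and none lower. Of all tested genes 8.66% were called higher and 7.61% lower. The panel median log2 fold change was 1.82, against 3.37 for the 3 xylanase genes and -0.03 over all tested genes. The largest rises in the panel were those of POX07535 (3.62, SE 0.45, adjusted p = 0.00131) and POX06147 (3.51, SE 0.61, adjusted p = 0.0058), both below POX06783 and above POX08484.

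With AV added to WB 2 of the 10 rose, POX04786 (1.94, adjusted p = 0.0433) and POX01896 (1.84, adjusted p = 0.0256), and POX05587 had 1.72 (adjusted p = 0.0544). With the replicate number as a block, which paired these libraries, 8 of the 10 were called higher, POX05587 among them (1.73, adjusted p = 0.0262). The block called 238 of all 8079 tested genes higher. From WB plus AV to WR the panel median was 0.25, with 1 of 10 called, POX07535 (2.22, adjusted p = 0.0162). Among all tested genes 3.24% were called higher there. With the block 2 were called, POX07535 and POX06147 (1.62, adjusted p = 0.0106), and 484 of all 8079 tested genes were called higher. Without the block the cellobiohydrolase genes stood at 0.23 and 0.37 (adjusted p = 0.793 and 0.648). The 3 xylanase genes had a median of 1.35 in that step. POX06835 was called in none of the carbon comparisons and had a value of -0.77 on WR against WB (adjusted p = 0.248).

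In MuPOX03016 against MuKu70 7 of the 10 rose and none fell, with a median log2 fold change close to the 1.21 of the xylanase genes. Among all tested genes 10.8% were called higher and 7.55% lower. POX01166 (1.40, adjusted p = 0.00791), POX07535 (1.39, adjusted p = 0.0175) and POX06147 (1.38, adjusted p = 0.0208) rose most. POX05587 stood at 0.93 (adjusted p = 0.0503), POX04786 rose (1.27, SE 0.30, adjusted p = 0.0261), and POX06835 stood at 0.04 (adjusted p = 0.917). In MuKu70 against EU2101, where 31.3% of all tested genes were called lower, 9 of the 10 were lower, among them POX05587 (-4.06, adjusted p = 4.3e-06) and POX04786 (-4.04, adjusted p = 8.28e-06). POX06835 was the 1 called higher (2.39, adjusted p = 2.16e-05), and its counts were not whole numbers in any of the 6 mutant libraries.

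Genes whose pattern was most like each xylanase gene were taken as the 2 highest Pearson correlations of log2(FPKM + 1) over the 9 EU2101 libraries, among 7386 genes with a mean of at least 10 FPKM. These libraries share 3 carbon sources and their replicate numbers, and the values describe likeness only. For POX00063 they were POX01921 (r = 0.99) and POX05645 (r = 0.968), for POX06783 POX08897 (r = 0.994) and POX08485 (r = 0.991), and for POX08484 POX06600 (r = 0.996) and POX01218 (r = 0.993). Among the xylanase genes r was 0.943 for POX00063 and POX08484, and POX08484 was the 22nd most like POX00063 of the 7386. For POX06783 and POX08484 r was 0.962, and POX06783 was the 26th most like POX08484. For POX00063 and POX06783 r was 0.82, and POX06783 was the 324th most like POX00063. Counted from the other gene of each pair, the ranks were further down. POX00063 was the 72nd most like POX08484 and the 737th most like POX06783, and POX08484 was the 35th most like POX06783.

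Over the 6 mutant libraries, which did not enter that choice, r ranged from 0.422 to 0.929 for the 6 genes named. It was 0.91 for POX01921 and 0.616 for POX05645 with POX00063, 0.422 for POX08897 and 0.814 for POX08485 with POX06783, and 0.929 for POX06600 and 0.88 for POX01218 with POX08484. Between the xylanase genes in these 6 libraries it was 0.341 for POX00063 and POX06783, 0.719 for POX00063 and POX08484, and 0.869 for POX06783 and POX08484.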

How the data were processed

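RNA sequencing of mycelium gave 15 libraries in 5 groups of 3, with groups and replicate numbers taken from the sample titles. Per the file headers, each deposited file pairs identifiers with expected counts and with FPKM. The expected counts are the authors' estimated counts per gene with no scaling stated, and the FPKM values were scaled by the authors for length and depth. Per the submitters' processing notes the tools included RSEM 1.2.12, Bowtie2 2.1.0, DESeq2 and BWA 0.7.10-r789, with no roles given, and the genome build is not given in the sources used here. Identifiers not listed in a file were set to 0. The lowest depth was 1782848 counts, and the 3 genes had at least 94 counts in every library.

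The test was edgeR's quasi-likelihood test (edgeR 4.0.16, R 4.3.3) on rounded expected counts, with TMM scaling, genes kept by filterByExpr at its minimum of 10 counts, and Benjamini-Hochberg adjustment over all tested genes. The 3 carbon comparisons were fitted over the 9 EU2101 libraries, each strain comparison over its own 6. A standard error is the size of the log2 fold change over the square root of F. CPM were computed from the deposited counts. Ratios of FPKM + 1 within libraries were tested by exact permutation, adjusted over 9 tests. The implied length is the count divided by FPKM and by the library total. The alternatives were DESeq2 1.42.0, DESeq2 size factors, no filter on low counts, limma 3.58.1 on log2(FPKM + 1) and log2(FPKM + 5) for genes with a mean of at least 1 FPKM, a replicate block, fits of only the 2 groups compared, TPM, and leaving out each library. Fits with a library left out had no block. CPM levels and panel calls under the block were added after seeing the data. The edgeR and permutation code was tested on simulated data.

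The members, the panel and the lists were chosen with earlier results of these data known. The genes named are the 3 members, POX03016, the called panel identifiers with the largest changes with the cellobiohydrolase and beta-glucosidase identifiers, and the 2 most like genes per member. Replicates differed by more than sampling noise in every pair (chi-square over degrees of freedom, 8.0 to 56.5). Same-numbered libraries deviated together from their group means at r of 0.428 to 0.592 between WB plus AV and WB and 0.227 to 0.428 between WR and WB plus AV, which was taken as pairing. In the other comparisons at least 1 of the 3 correlations was under 0.1, and the samples were taken to share only a number. For WR against WB this sits beside the pairing of both groups with WB plus AV. The 3 member calls of that comparison held with and without the block.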

Additional observations from a re-analysis of the deposited data

How the results depend on the processing

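All 15 log2 fold changes kept their direction under every alternative run. The calls of the 3 genes for WR against WB and for MuKu70 against EU2101 held in all 39 and 37 values under alternatives, with leave-one-out ranges of 1.51 to 1.84 (POX00063), 4.05 to 5.81 (POX06783) and 3.09 to 3.74 (POX08484) and of -2.86 to -2.11, -2.60 to -2.22 and -4.89 to -4.41. For WB plus AV against WB, DESeq2 called POX06783 (3.17) and POX08484 (1.64), limma on log2(FPKM + 1) and log2(FPKM + 5) called POX06783 (3.57 and 3.51), and the replicate block called POX06783 (3.43) and POX08484 (1.63). Leaving out single libraries gave 0.23 to 0.52, 2.59 to 4.47 and 1.33 to 1.99. In WR against WB plus AV, limma on log2(FPKM + 1) lost POX00063 (1.26) and POX08484 (1.71), limma on log2(FPKM + 5) lost POX08484 (1.71), and the replicate block gained POX06783 (1.54). Leaving out single libraries gave 1.15 to 1.48, 1.05 to 1.90 and 1.46 to 2.04. For MuPOX03016 against MuKu70, limma on log2(FPKM + 1) and log2(FPKM + 5) lost POX06783 (0.96 in both), and leaving out single libraries gave 0.68 to 1.64, 0.73 to 1.40 and 1.85 to 2.38. The cause of these changes was not tested.

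Whether same-numbered samples of MuPOX03016 and MuKu70 are paired is not settled. Between WR and WB plus AV, taken as paired, same-numbered deviations correlated at 0.227 to 0.428. In the MuPOX03016 comparison the samples were taken to share only a number, with correlations of same-numbered deviations of 0.035, 0.282 and 0.438. These were 0.083, 0.29 and 0.161 for WR against WB, where every sample correlated best with its own number, and 0.027, 0.128 and 0.087 for MuKu70 against EU2101, where not every sample did, as in the MuPOX03016 comparison. In the MuPOX03016 comparison the replicate block called POX00063 (1.18, adjusted p = 0.00247) and gave 1797 genes, against 1456 without it. The block gave 510 genes for WB plus AV against WB (95 without it), 2291 on WR against WB (1315) and 873 on WR against WB plus AV (411). Beyond POX00063 it gained POX06783 and POX08484 on WB plus AV against WB and POX06783 on WR against WB plus AV. No other edgeR call of the 3 genes changed with it. In the panel the block gave 9 of 10 calls in place of 7 for MuPOX03016 against MuKu70. For that comparison it called 1125 of all 7931 tested genes higher, against 857 without it. DESeq2 gave 543 and 648 genes in the comparisons of WB plus AV with WB and of WR with WB plus AV, and a fit of only the 2 groups compared gave 3 and 733. Leaving out single libraries gave 4 to 1769 genes for WB plus AV against WB, 548 to 2962 on WR against WB (the highest in both without WB replicate 1), 155 to 393 on WR against WB plus AV, 542 to 1270 for MuPOX03016 against MuKu70 and 4557 to 5018 for MuKu70 against EU2101. The share of calls that were higher on WB plus AV than on WB was 57.9% in edgeR, 47.5% in DESeq2 and 46.6% in limma on log2(FPKM + 1). The share that were higher in MuPOX03016 was 58.9% in edgeR and 34.4% in limma on log2(FPKM + 1).

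Among the ratios, the replicate block left too few arrangements for any call between carbon sources. It thus could not keep the calls of POX08484 over POX00063 (1.74) and POX08484 over POX06783 (-1.59). Leaving out single libraries gave 1.51 to 2.08 and -2.11 to -1.25 for these, 2.76 to 4.19 for POX06783 over POX00063, and in MuPOX03016 against MuKu70 -0.54 to 0.63 for POX06783 over POX00063, 0.68 to 1.46 for POX08484 over POX00063 and 0.83 to 1.25 for POX08484 over POX06783. The sign of POX06783 over POX00063 turned without MuKu70 replicate 1 (0.06) or 3 (0.25) or MuPOX03016 replicate 2 (0.63). As TPM, 13 of the 15 group means moved by less than 1 SD, the others being POX00063 on WB (2144) and POX06783 in MuKu70 (1019). At 3 libraries per group an exact test between 2 groups cannot go below p = 0.1.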

Other observations

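POX08485, the identifier that follows POX08484 in number, was named above for its likeness to POX06783, and its levels were read in full after that. It stood at 965 ± 939 FPKM on WB (SD, n = 3), 3814 ± 1777 on WB plus AV and 5620 ± 1139 on WR in EU2101, and at 234.3 ± 48.2 FPKM in MuKu70 and 1307 ± 265 FPKM in MuPOX03016. The length implied by count and FPKM was 1423 to 1439 bp in EU2101 and 1922 to 2426 bp in the mutant libraries, so FPKM levels are not on 1 length across these sets. It rose on WR against WB (log2 fold change 2.67, SE 0.60, adjusted p = 0.0163 in edgeR) and in MuPOX03016 against MuKu70 (2.39, SE 0.23, adjusted p = 0.00171), and was lower in MuKu70 than in EU2101 (-3.83, SE 0.26, adjusted p = 7.6e-06). POX08484 rose 2.17 and fell by 4.67 on the log2 scale in the same strain comparisons. Whether consecutive identifiers are neighbours on a chromosome was not analysed here.

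POX05645, named for its likeness to POX00063, was at 155.91 to 187.79 FPKM in EU2101 on WR and at 2.26 to 3.19 FPKM in MuKu70. The log2 change was -6.03 (SE 0.16, adjusted p = 3.06e-07 in edgeR), against -2.41 for POX00063. POX05645 had only 23 to 32 counts in the MuKu70 libraries. Both genes correlated across the EU2101 libraries, but on WR against WB POX05645 rose by 2.61 and POX00063 by 1.68. POX01921, the gene most like POX00063, stood at -0.91 in MuKu70 against EU2101 (adjusted p = 0.031 in edgeR).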
